A study of Oryza sativa with 4 samples.

Results

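The 137 genes described here were higher after 6 days than after 1 day under water in shoots of the rice cultivar M202, and less so, or not at all, in its near-isogenic line M202(Sub1). Each had a log2 signal at least 1 higher at 6 days in M202 (a 2-fold difference or more), and a 6-day minus 1-day difference at least 1 lower in M202(Sub1) than in M202. They are 137 of the 15426 genes whose probe set reached the level floor on at least 1 array, and of 17905 genes with a probe set in all. A further 6 genes met the same limits and were left out by name (CPS2, CYP76M7, CYP71Z7, PBZ1, GER2 and GER3). All 4 arrays were used to choose the members, that is, the members were chosen by their measured values, so their levels and differences are a description and no test is made on them. Of the 137 genes, 31 carry an informative symbol in the annotation used and 106 are known here by an identifier only.

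M202 is a japonica rice cultivar sensitive to flooding, and M202(Sub1) is the same cultivar with the Sub1 locus introgressed, a stretch of chromosome that carries ethylene response factor genes and gives tolerance of complete submergence. Soil-grown seedlings of both genotypes, 18 days old, were held fully under water in a greenhouse for 1 day or 6 days, and RNA was taken from shoots. That gives 4 groups with 1 one-colour Affymetrix rice array each, namely M202 at 1 day, M202 at 6 days, M202(Sub1) at 1 day and M202(Sub1) at 6 days. All groups were submerged, and no unsubmerged plants are among the samples, so a value at 1 day is not a value before flooding. Without such plants, time under water cannot be told apart from plant age or the day of sampling. With 1 array per group no difference has a replicate check, and the number of arrays limits the precision of each value. Other genes in the introgressed stretch cannot be told apart from Sub1 itself.

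Rice makes diterpenoid phytoalexins, small antimicrobial compounds such as momilactones and phytocassanes, by cyclising geranylgeranyl diphosphate and then oxidising the product with cytochrome P450 enzymes and dehydrogenases. Several of these genes sit side by side in the genome, and the same early steps, catalysed by related enzymes, lead to gibberellin, the hormone of shoot growth. Chitinases, which cut a polymer of fungal cell walls, and germin-like proteins are further products known from defence. In submerged rice, Sub1 is known for holding back elongation and the use of reserves.

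The arrays had median log2 signals from 5.48 to 5.53. Their processing forces arrays to 1 distribution, so near-equal medians are no check of the arrays. The level floor was a log2 signal of 5.51, the median of all values, below which a value is close to background. Shoot identity was checked on 7 photosynthesis genes, of which 6 lay above the floor on each array, with list medians of 13.82 and 12.86 in M202 and 13.79 and 12.75 in M202(Sub1) at 1 and 6 days. The exception was the gene with the symbol RBCS1, under the floor on all arrays. Of 7 seed storage genes, 5 were under the floor on all arrays, while the glutelin gene GLUA-2 lay at 9.34 to 10.22. The 3' minus 5' signal of the glyceraldehyde phosphate dehydrogenase control, a sign of RNA quality, was 0.68 and 0.79 in M202 and 0.60 and 0.81 in M202(Sub1) at 1 and 6 days. That of the actin control was larger, at 3.12 on both M202 arrays and 3.32 and 3.46 on those of M202(Sub1), and that of cyclophilin was 0.32 to 0.51. The part of these values in the results was not tested. The array also carries 10 control probe sets for genes of the rice blast fungus, whose time differences spanned -0.27 to 0.46 for M202, with -0.23 to 0.32 for M202(Sub1). For those controls the difference between the time differences of the genotypes was from -0.24 to 0.28. Their median level was 5.51 and 5.36 in M202 and 5.43 and 5.46 in M202(Sub1) at 1 and 6 days. The highest of them was at 6.65 and 6.49 in M202 and at 6.64 and 6.47 in M202(Sub1). A level a little above the floor can thus lie within the range of these controls. In whole shoots, fewer cells of a type and less RNA per cell cannot be told apart.

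Across the 137 members the median time difference was 2.18 in M202 (4.52-fold) and 0.64 in M202(Sub1) (1.56-fold), against -0.02 and 0.01 over all genes above the floor. In M202 the differences ran from 1.01 to 5.01, with 77 of the members at 2 or more and 17 at 3 or more. At least 2-fold higher with time in M202 were 7.44% of all genes above the floor, and a time difference at least 1 lower in M202(Sub1) than in M202 was seen in 1.59%. The rule itself used these values, so nothing is read from the comparison. In M202(Sub1) the members differed among themselves. The time difference there reached 1 or more in 43 of the 137, where 6.25% of all genes did so, lay within 1 of 0 in 93, and was below -1 in a single gene, LOC4349113. Of the 137, 43 lay within 0.25 of 0, and 21 were below 0.

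**Figure D1:**
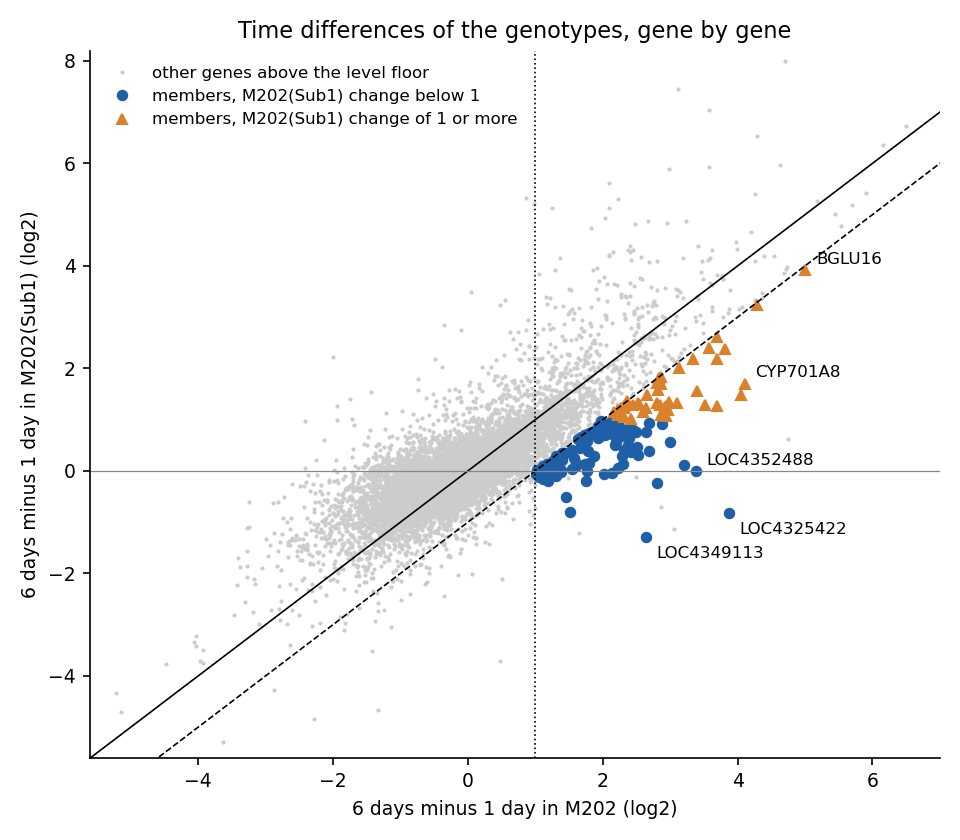
Time difference (6 days minus 1 day, log2) of each gene in M202 on the x axis and in M202(Sub1) on the y axis, with equal differences on the solid line and the 2 limits of the rule as dotted and dashed lines. The 43 members drawn as triangles had a difference of 1 or more in M202(Sub1) as well, from genes near the limit such as BGLU16 (5.01 and 3.91) to genes far from it such as CYP701A8 (4.11 and 1.70), while LOC4325422 and LOC4349113 lay below 0 in M202(Sub1), and grey points include the 6 genes left out by name.

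The gap between the genotypes lay mostly at 6 days. At that time M202(Sub1) had the lower level in 133 of the 137 members, with a median difference of -1.04, a level 2.06-fold lower. At 1 day 103 of the 137 were higher in M202(Sub1), by a median of 0.31. Among all genes above the floor, 49.6% were lower in M202(Sub1) at 6 days and 47.4% were higher at 1 day. In 107 members the 6-day gap was the larger of the pair. Of the 137, 67 were at least 2-fold lower in M202(Sub1) at 6 days only, 13 were at least 2-fold higher at 1 day only, 4 did both, and 53 reached 2-fold at neither time. In total 71 were at least 2-fold lower at 6 days, beside 2.18% of all genes, and 17 were at least 2-fold higher at 1 day, beside 0.778%. With values under the floor set to the floor these counts were 59 and 13, the 1-day gaps of CPS4, WRKY62, Cht4 and LOC4349113 no longer reaching 2-fold. The genotype differences are made from the arrays the rule used, so these shares too are descriptions. The array of M202 at 6 days was the highest of the 4 for 133 of the members and for 29.1% of all genes. For the other 4, LOC4328720, CDKE-1, OsPP2C45 and MT4C, the level at 6 days was higher in M202(Sub1).

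**Figure D2:**
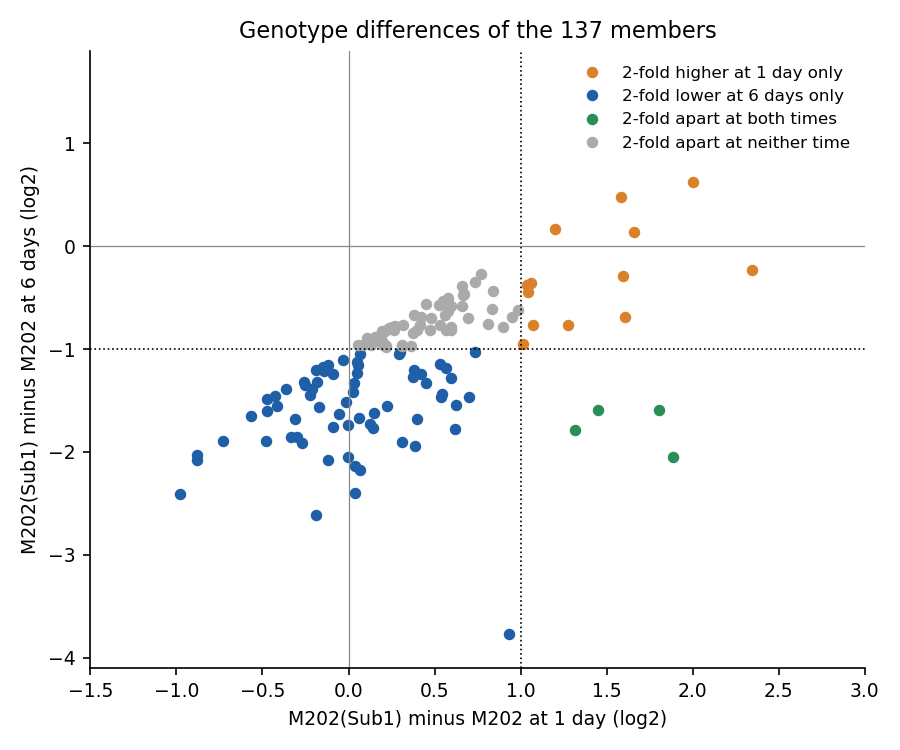
M202(Sub1) minus M202 (log2) at 1 day on the x axis and at 6 days on the y axis for each of the 137 members. Most points lie below 0 at 6 days and close to 0 at 1 day, 17 lie at or beyond 1 at 1 day, and the empty area on the upper left follows from the rule, which requires the 6-day value to be at least 1 below the 1-day value.

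The enzymes of diterpenoid phytoalexin synthesis were the fullest group. The list of these enzymes held 12 genes above the floor, of which 6 are members and 3 more were left out by name, while members make up 0.888% of all genes above the floor. With values under the floor set to the floor 4 of the 6 still met both limits, and KSL4 and KSL7 did not. The list counts only genes that reached the floor on at least 1 array, and KSL4, KSL7 and OsMAS did so at 6 days in M202 alone. CYP76M5 (LOC4329721), at 3.64 and 3.78 in M202, and CYP71Z6 (LOC4329725), at 2.85 and 2.97, were under the floor and not counted. The share and the medians of the list thus depend on the floor. Over the 12 genes the median time difference was 2.35 in M202 and 0.07 in M202(Sub1). CPS4, the syn-copalyl diphosphate synthase that forms the precursor of momilactones, was at 5.29 and 8.17 in M202 and at 6.31 and 7.22 in M202(Sub1) at 1 and 6 days. It began higher in M202(Sub1) and ended lower. KSL4, the syn-pimaradiene synthase that takes the next step, was at 3.65 and 6.04 in M202 and at 3.65 and 4.29 in M202(Sub1). M202 at 6 days was the only array on which it passed the floor, and with the other values set to the floor its difference between time differences was -0.52, short of the limit.

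Among the later steps of the momilactone route, the P450 gene CYP99A2 was at 5.31 and 7.62 in M202 and at 5.94 and 6.08 in M202(Sub1). OsMAS, the dehydrogenase that completes momilactone A, was at 5.19 and 6.53 in M202 and stayed level in M202(Sub1), at 5.49 and 5.49. For phytocassanes, KSL7, the ent-cassadiene synthase, was at 4.42 and 6.19 in M202 and at 5.15 on both arrays of M202(Sub1). CYP99A2, OsMAS and KSL7 were thus each higher at 6 days in M202 and within 0.14 of the 1-day level in M202(Sub1). OsMAS and KSL7 were under the floor on 3 of the 4 arrays. With those values set to the floor the difference between time differences was -1.01 for OsMAS and -0.67 for KSL7, which with the mean of its probe sets was at -0.89.

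CYP701A8, a P450 related to kaurene oxidase that hydroxylates phytoalexin precursors, had the second largest time difference in M202 among members with a symbol. It was at 4.27 and 8.37 in M202 and at 4.89 and 6.59 in M202(Sub1), differences of 4.11 and 1.70. CYP701A9, its neighbour and close relative, was at 3.72 and 6.09 in M202 and at 4.31 and 4.81 in M202(Sub1). Both genes were under the floor at 1 day in both genotypes. With such values set to the floor the difference between time differences went from -2.40 to -1.78 for CYP701A8 and from -1.88 to -0.58, short of the limit, for CYP701A9. The related enzymes of gibberellin synthesis, a comparison chosen after their values were seen, had other values. Of 4 such genes none was 2-fold apart with time in either genotype, and the median time difference was -0.28 in M202 and -0.23 in M202(Sub1). The kaurene oxidase gene of that route, D35 (LOC4341347), was at 9.04 and 8.60 in M202 and at 9.19 and 8.70 in M202(Sub1). The phytoalexin P450 genes CYP76M8 (LOC4329722, -0.42), CYP76M6 (LOC4329730, -0.39) and CYP99A3 (LOC4335091, -0.83) had differences between time differences short of the limit.

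**Figure D3:**
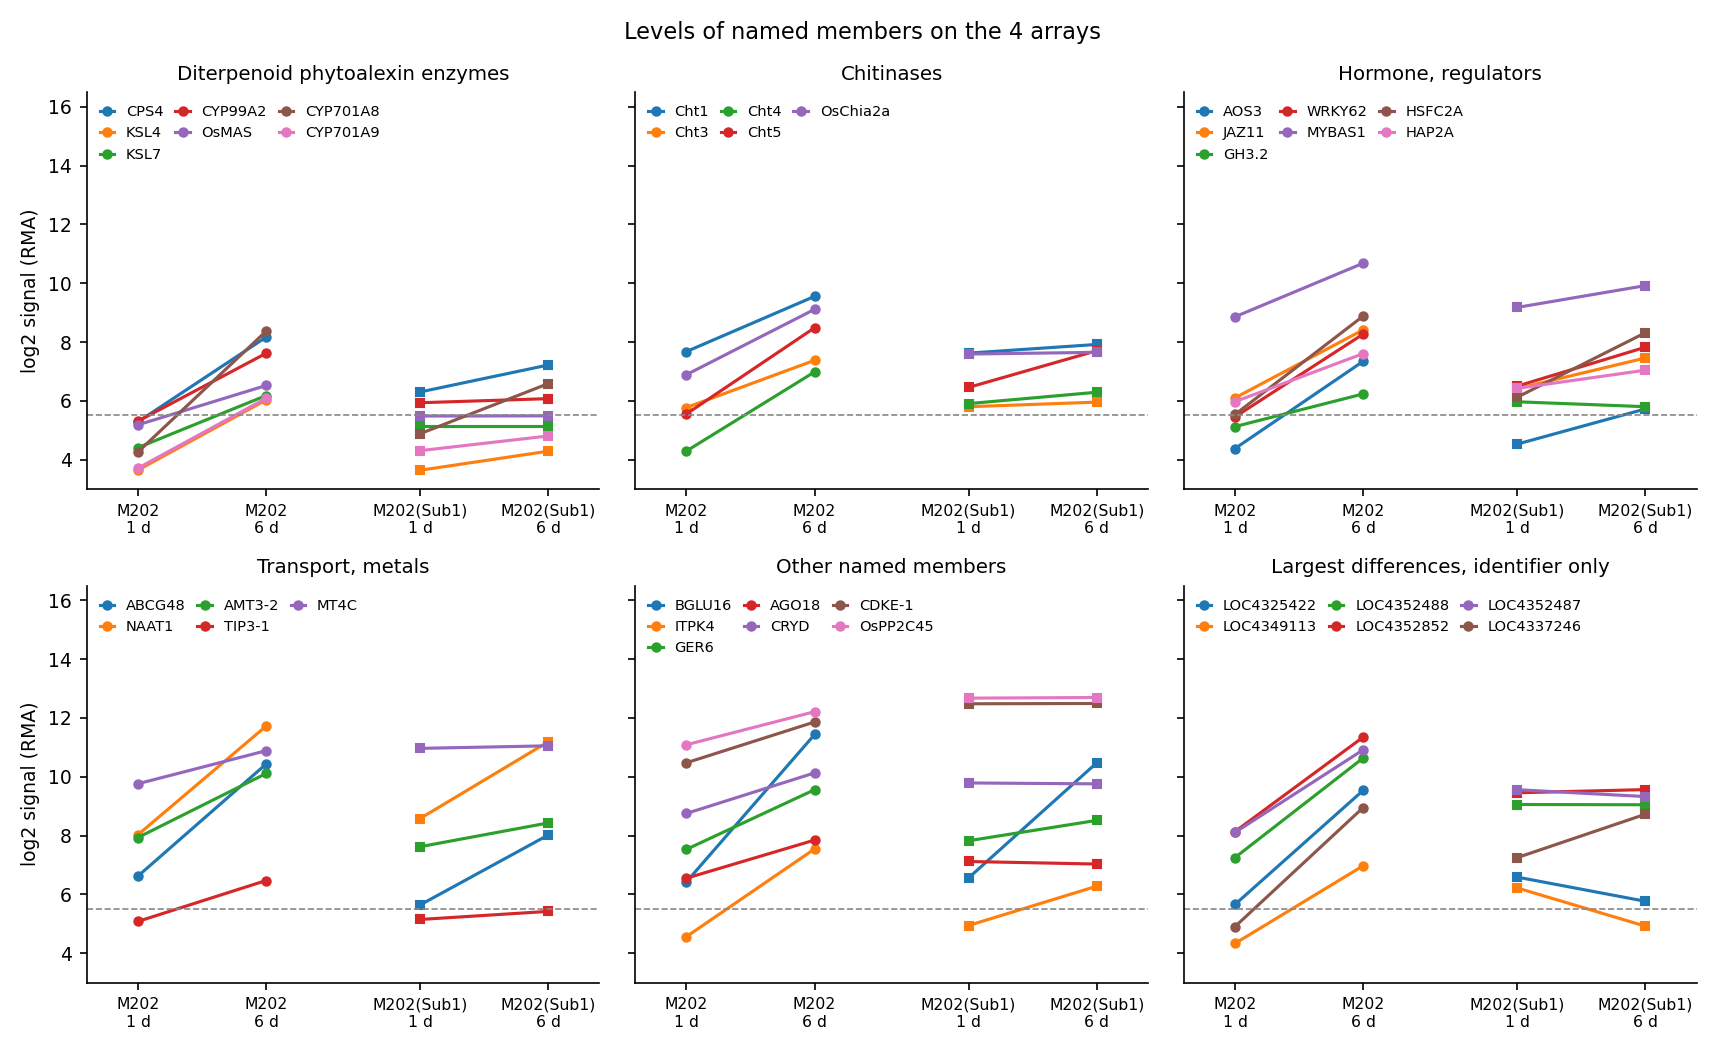
Log2 signal (RMA) on the y axis for 37 members in 6 panels by role, with the 4 arrays on the x axis, circles for M202 and squares for M202(Sub1), lines joining 1 and 6 days within a genotype, and the level floor of 5.51 dashed. The lines of the phytoalexin enzymes and chitinases climb in M202 and are flatter in M202(Sub1), while those of NAAT1, ABCG48 and BGLU16 climb in both, and CDKE-1, OsPP2C45 and MT4C start higher in M202(Sub1) and stay there.

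In the list of chitinases and glucanases, also chosen with earlier results known, 5 of the 11 genes above the floor were members. Members make up 0.888% of all genes above the floor. The median time difference over the 11 was 1.36 in M202 and 0.06 in M202(Sub1). Cht1 was at 7.68 and 9.56 in M202 and at 7.63 and 7.92 in M202(Sub1). OsChia2a was at 6.90 and 9.12 in M202 and at 7.59 and 7.65 in M202(Sub1), and a second probe set of that gene gave 6.59 and 9.03, then 7.59 and 7.47. These genes were above the floor on all arrays, and in both of them M202 at 6 days stood alone.

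Cht3 was at 5.78 and 7.38 in M202 and at 5.80 and 5.96 in M202(Sub1), on a probe set of the _x_at class, which can cross-hybridise. Its second set, of the same class, gave a difference between time differences of -0.99, just short of the limit. Cht4 was at 4.30 and 6.99 in M202 and at 5.91 and 6.30 in M202(Sub1), the M202 1-day value being under the floor. M202(Sub1) minus M202 was 1.61 at 1 day, or 0.40 with that value set to the floor, and -0.69 at 6 days. Cht5 was at 5.56 and 8.49 in M202 and at 6.46 and 7.71 in M202(Sub1), higher by 1.25 with time in the latter. The 5 members thus ranged from no time difference in M202(Sub1), in OsChia2a, to a 2.37-fold one in Cht5, against 3.04-fold to 7.62-fold in M202. Among the 6 genes of the list that are not members, Cht11 (LOC4331519) came closest to the limit at -0.96 and Cht10 (LOC4325148) was at -0.01. GER6, a germin-like protein gene, was at 7.53 and 9.56 in M202 and at 7.83 and 8.52 in M202(Sub1). It was 1 member among 9 genes above the floor in the germin-like list, beside 0.888% of all genes, 2 others having been left out by name. That list had a median time difference of -0.04 for M202, and -0.41 for M202(Sub1).

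**Figure D4:**
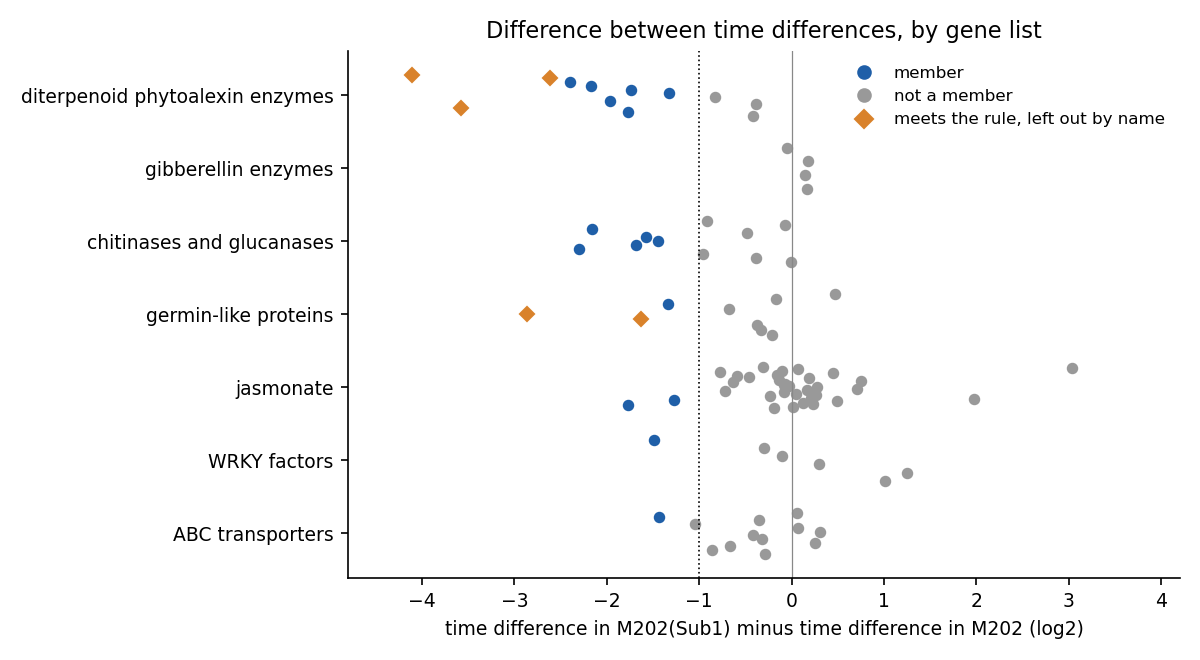
Difference between time differences (M202(Sub1) minus M202, log2) on the x axis for each gene above the floor in 7 gene lists, with members in blue, genes left out by name as orange diamonds and the limit of the rule dotted. In the phytoalexin list 9 of 12 genes lie beyond the limit and none lies above 0, the 4 gibberellin genes lie between -0.05 and 0.18, and the jasmonate list spreads from -1.77 to 3.03.

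Genes of the hormones jasmonate and auxin were also among the members. AOS3, an allene oxide synthase of the kind that opens jasmonate synthesis, was at 4.39 and 7.35 in M202 and at 4.53 and 5.73 in M202(Sub1). Both of its 1-day values were under the floor. With them set to the floor its time differences were 1.84 in M202 and 0.21 in M202(Sub1). JAZ11, a repressor of jasmonate responses, was at 6.11 and 8.42 in M202 and at 6.42 and 7.46 in M202(Sub1). AOS3 and JAZ11 were the 2 members of the 33 jasmonate genes above the floor, while members make up 0.888% of all genes above the floor. The median time difference of the 33 was 0.30 in M202 and 0.16 in M202(Sub1). Other genes of that list went differently, since AOS2 (LOC4332121) had time differences of 2.50 and 2.70, and the repressor gene JAZ13 (LOC4348531) of 2.10 and 5.13. GH3.2, which conjugates the hormone auxin to amino acids, was at 5.13 and 6.24 in M202 and at 5.97 and 5.81 in M202(Sub1), close to the floor on all 4 arrays, and short of the limit (-0.89) with the low value set to the floor.

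Of the transcription factors, WRKY62, known in rice as a partner of the XA21 immune receptor and a regulator of defence, was at 5.46 and 8.27 in M202 and at 6.50 and 7.83 in M202(Sub1). M202(Sub1) minus M202 was 1.04 at 1 day and -0.45 at 6 days. Of the other 5 genes above the floor with a WRKY symbol or synonym, 4 were also at least 2-fold higher with time in M202, beside 7.44% of all genes. None of the 5 was a member, and WRKY76 (LOC4347069) had time differences of 2.63 and 2.32. HSFC2A, a heat stress factor of class C, was at 5.54 and 8.89 in M202 and at 6.13 and 8.32 in M202(Sub1). It was the 1 member among 37 genes above the floor in the heat shock list, beside 0.888% of all genes. MYBAS1, a MYB factor, was at 8.86 and 10.68 in M202 and at 9.18 and 9.92 in M202(Sub1). HAP2A, a subunit of the CCAAT-binding complex, was at 5.98 and 7.61 in M202 and at 6.43 and 7.05 in M202(Sub1). These 4 regulators were all higher at 6 days in both genotypes, by 1.63 to 3.34 in M202 and by 0.62 to 2.19 in M202(Sub1).

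Among the transporter and metal genes, ABCG48 and NAAT1 were at least 2-fold higher with time in both genotypes. ABCG48, an ABC transporter of the pleiotropic drug resistance class, was at 6.62 and 10.43 in M202 and at 5.64 and 8.02 in M202(Sub1). It was lower in M202(Sub1) at both times, with differences of -0.98 and -2.41. NAAT1, which makes a precursor of the iron chelator deoxymugineic acid, was at 8.03 and 11.72 in M202 and at 8.58 and 11.19 in M202(Sub1), a 12.9-fold and a 6.10-fold difference with time. AMT3-2, an ammonium transporter, was at 7.94 and 10.11 in M202 and at 7.62 and 8.43 in M202(Sub1), on another _x_at probe set. TIP3-1, a tonoplast aquaporin, was at 5.08 and 6.47 in M202 and at 5.15 and 5.43 in M202(Sub1), and passed the floor on the M202 6-day array alone, with a difference between time differences of -0.96 when the others were set to the floor. MT4C, a metallothionein, behaved otherwise, at 9.76 and 10.89 in M202 and at 10.97 and 11.05 in M202(Sub1). Its M202 level at 1 day was the low value, and the other 3 arrays were close together.

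CDKE-1, a cyclin-dependent kinase, and OsPP2C45, a protein phosphatase, had the same form as MT4C. CDKE-1 was at 10.48 and 11.86 in M202 and at 12.48 and 12.49 in M202(Sub1). OsPP2C45 was at 11.09 and 12.21 in M202 and at 12.67 and 12.69 in M202(Sub1). In both genes M202 was below M202(Sub1) on either day. Each has a second probe set that did not show this, with a difference between time differences of -0.24 for CDKE-1 and -0.27 for OsPP2C45. CRYD, a cryptochrome of the DASH class, was at 8.75 and 10.13 in M202 and at 9.79 and 9.76 in M202(Sub1).

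The largest time difference of all members was that of BGLU16, a beta-glucosidase gene, at 6.43 and 11.44 in M202 and at 6.56 and 10.47 in M202(Sub1). That is 32.2-fold and 15.1-fold, and a second probe set gave log2 differences of 5.12 and 3.72. ITPK4, an inositol phosphate kinase, was at 4.57 and 7.55 in M202 and at 4.95 and 6.28 in M202(Sub1). Its 1-day values were under the floor in both genotypes, and set to the floor they gave time differences of 2.04 and 0.77. AGO18, an argonaute protein known in rice from antiviral defence, was at 6.55 and 7.85 in M202 and at 7.12 and 7.03 in M202(Sub1), so that it was higher with time in M202 alone.

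Several of the widest gaps belonged to genes without a symbol here. LOC4325422 had the most negative difference between time differences, -4.70, at 5.66 and 9.54 in M202 and at 6.59 and 5.77 in M202(Sub1). At 6 days M202(Sub1) minus M202 was -3.77, the largest gap of any member at that time. LOC4349113 was at 4.34 and 6.98 in M202 and at 6.22 and 4.92 in M202(Sub1), with the first and last of these under the floor. As measured it is the 1 member with time differences of 2-fold or more in opposite directions, beside 4.61% of all genes that were at least 2-fold lower with time in M202(Sub1). With those values set to the floor its time differences were 1.46 and -0.71, and no member had such opposite differences. LOC4352852 was at 8.14 and 11.35 in M202 and at 9.46 and 9.56 in M202(Sub1). LOC4337246 was at 4.91 and 8.96 in M202 and at 7.25 and 8.73 in M202(Sub1). M202(Sub1) minus M202 in LOC4337246 was 2.34 at 1 day, or 1.74 with its M202 value, under the floor, set to the floor, and -0.23 at 6 days, whereas LOC4352852 crossed over, with genotype differences of 1.32 at 1 day and -1.78 at 6 days. LOC4349705, second only to BGLU16 in M202, was at 6.62 and 10.90 in M202 and at 7.39 and 10.63 in M202(Sub1), and lay just inside the limit with a difference of -1.04.

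The position of a gene was not used to choose it. Gene order was taken from the RefSeq assembly ASM3414082v1. Of the 137, 20 (14.6%) had another member as the next measured gene along the chromosome, and 30 (21.9%) had one with at most 1 measured gene between. Among the 612 genes at least 2-fold higher with time in both genotypes and less than 2-fold apart in that, 11.9% and 18.3% had such a neighbour from their own set, and among 185 genes higher mainly in M202(Sub1) 10.3% and 14.1% had one. These sets differ in size, which alone alters such shares. The members also lack the 6 genes left out by name, of which PBZ1 and CYP71Z7 lie close to members, while no gene was left out of the other sets by name. No test of the difference was made. With up to 5 measured genes between, the shares were 28.5%, 38.7% and 20.0%, so that members did not have the highest share at each distance. Chromosome 12 held 16 members, or 2.10% of its 761 genes above the floor, and chromosome 8 held 4, or 0.399% of 1002.

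The 30 close members fell into 13 stretches, of which 1 held 4 members, 2 held 3 and 10 held 2. The stretch of 4, on chromosome 4, was CPS4, OsMAS, KSL4 and CYP99A2, the momilactone genes already described, with CYP99A3 between them at 5.99 and 7.49 in M202 and at 6.23 and 6.90 in M202(Sub1). The genes on either side, ARP9 (LOC4335089) and LOC4335098, had time differences of 0.32 and 0.16 in M202 and of 0.45 and 0.15 in M202(Sub1). Neither flanking gene was thus 2-fold apart with time in either genotype. KSL7 lay next to LOC4329723 on chromosome 2, which was at 6.27 and 7.79 in M202 and at 6.66 and 5.85 in M202(Sub1), with CYP71Z7, left out by name, 2 measured genes further on from KSL7. Chitinase pairs stood on chromosome 4 (Cht4 and Cht5) and on chromosome 6 (Cht3 and Cht1).

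On chromosome 12, LOC4352487 was at 8.11 and 10.92 in M202 and at 9.56 and 9.33 in M202(Sub1). LOC4352488, beside it, was at 7.26 and 10.64 in M202 and at 9.06 and 9.05 in M202(Sub1). These neighbours were alike, with M202(Sub1) minus M202 of 1.45 and 1.80 at 1 day and of -1.59 in both at 6 days. PBZ1, left out by name, lay on the other side of LOC4352490, which had time differences of -0.31 and 0.02. On chromosome 1, LOC4325424 was close to LOC4325422 and was at 6.84 and 9.34 in M202 and at 8.11 and 8.58 in M202(Sub1), with LOC4325423 between them at time differences of -0.13 and 0.14. LOC4350821 and LOC4350823 on chromosome 11 had differences of 2.42 and 2.52 in M202 and of 0.37 and 0.30 in M202(Sub1). The 3 adjoining genes LOC4328531, LOC4328532 and LOC4328533 on chromosome 2 had differences of 1.74, 2.10 and 2.54 in M202 and of 0.70, 0.82 and 1.31 in M202(Sub1). LOC9269069, LOC4351260 and LOC4351262 on chromosome 12 had differences of 1.06, 1.22 and 1.61 in M202 and were level in M202(Sub1), at -0.02, 0.11 and 0.09. The other pairs were LOC4324065 and LOC4324066 on chromosome 1, LOC4332481 and LOC4332483 on chromosome 3, LOC4342731 and LOC4342734 on chromosome 7, and CYP701A9 and CYP701A8 on chromosome 6. Neighbouring genes that arose by duplication can have like sequences, and whether their probe sets read each other's transcripts was not tested.

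**Figure D5:**
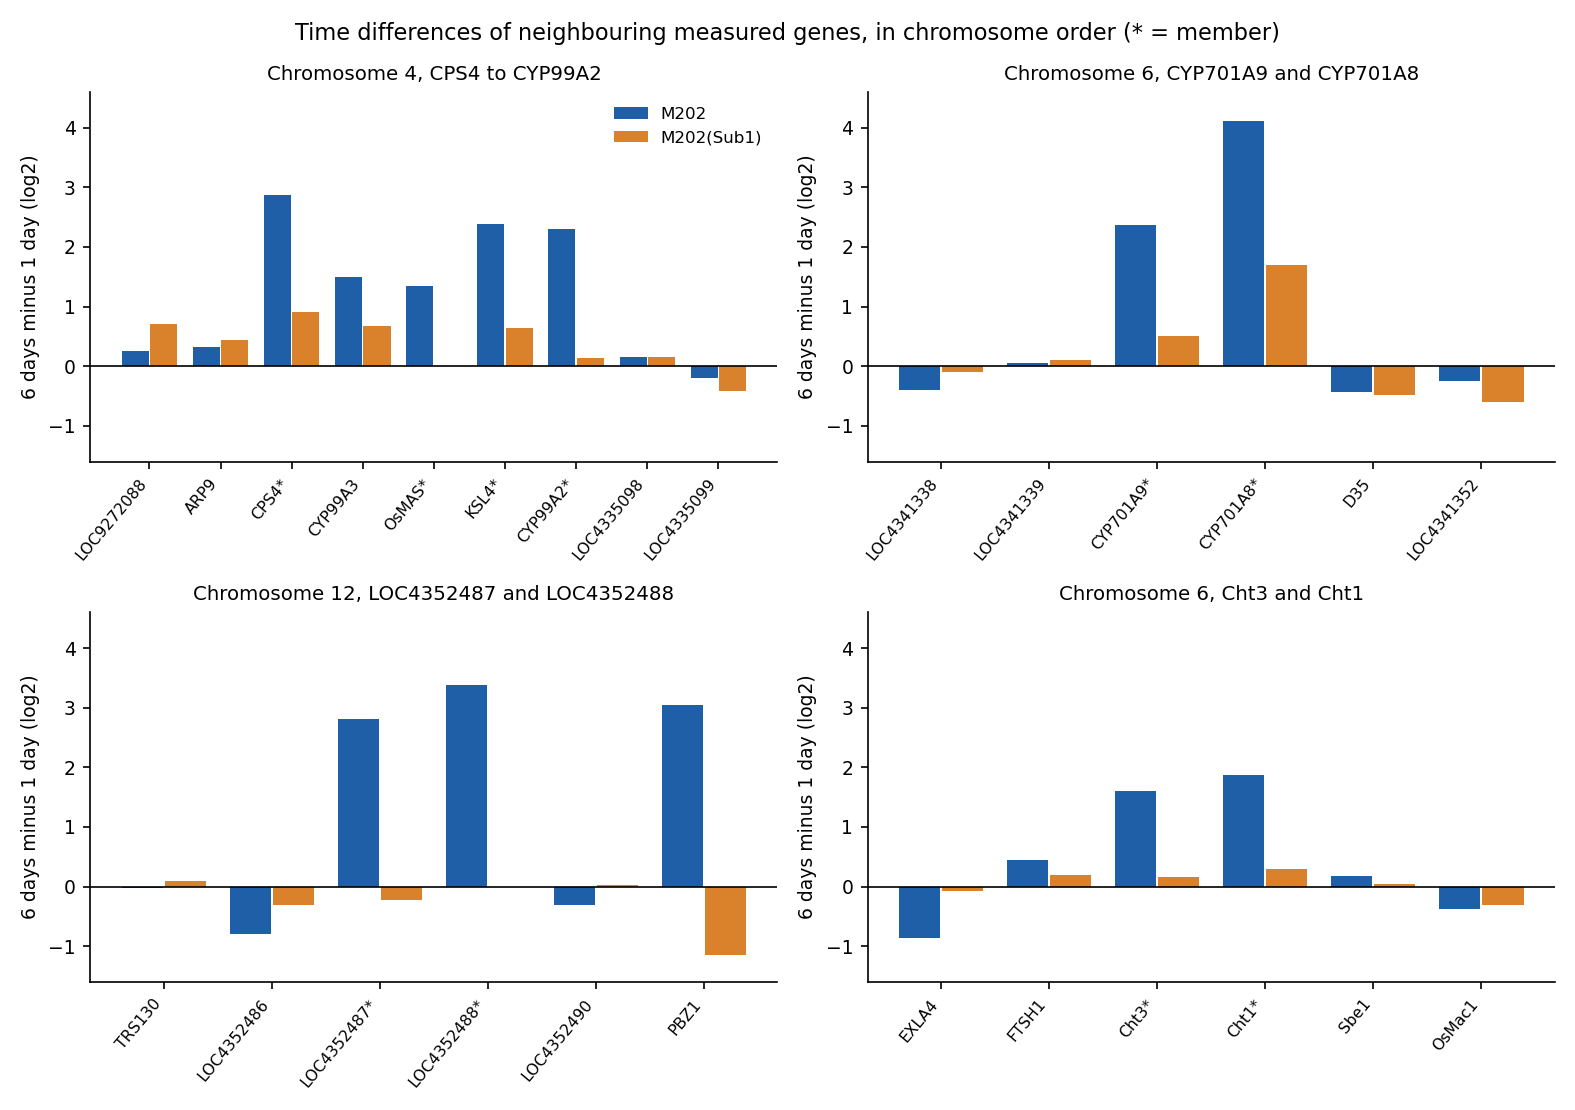
Time difference (6 days minus 1 day, log2) on the y axis for neighbouring measured genes in chromosome order on the x axis, in 4 stretches, with M202 in blue, M202(Sub1) in orange and members starred. CYP701A9 and CYP701A8 stand above D35 in M202. PBZ1, which met the limits and has no star because it was left out by name, stands at 3.05 in M202, with LOC4352487 at 2.81. LOC4352490, between LOC4352488 and PBZ1, is near 0 in both genotypes.

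Low signal limits part of these values. On the M202 1-day array 49 of the 137 members were under the floor, against 35 and 21 for M202(Sub1) at 1 and 6 days and none for M202 at 6 days, and 88 were above it on all 4. With values under the floor set to the floor, 115 of the 137 still met both limits. The 22 that did not were KSL4, KSL7, CYP701A9, TIP3-1, GH3.2 and 17 genes known by identifier only. Of the 26 members with other probe sets, 17 had another set above the floor, and in 16 of these each such set had the same signs, a higher M202 value at 6 days and a smaller difference in M202(Sub1). The exception was LOC4339966, whose other set had differences of 0.09 and 0.12. These signs do not cover the genotype gap at 6 days, and sets that differ in it were not counted. In LOC4331443 that gap was -0.98 on the chosen set and 1.71 on the other. In 10 of the 17 the other sets also met both limits. The names of 9 chosen probe sets end in _x_at and of 11 in _s_at, which mark possible cross-hybridisation or shared transcripts.

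The limits of the rule are not natural breaks. The members nearest to the time limit were LOC4329459 (1.01 in M202), LOC4325763 (1.03) and LOC4343839 (1.05), and just outside it were LOC4333669 (0.9996), LOC4347937 (0.9991) and LOC4347125 (0.9965). Nearest to the limit on the difference between time differences were LOC4324065 (-1.003), LOC4352329 (-1.01) and LOC4344002 (-1.01), and just outside it LOC4343406 (-0.996), LOC4324329 (-0.99) and LOC4327579 (-0.99).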

How the data were processed

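One one-colour array per group was measured (4 groups, taken from the genotype and time in the titles). The deposited table holds log2 values for 57381 probe sets, which the authors computed by RMA (per the submitters' processing notes). The sources used here state neither its version nor which arrays it was run on together. RMA forces arrays to 1 distribution, which hides a shift in total RNA. Of 57258 rice probe sets, 22436 carry 1 gene in the platform annotation, 95 several, and 34727 are unnamed here. Their 17905 genes all had their gene number in the RefSeq table for ASM3414082v1, used for names and order only.

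For each gene the probe set with the highest mean was kept, and the floor was the 50th percentile of all values. Differences are 6 days minus 1 day and M202(Sub1) minus M202. No p-values were computed. The members and the 33 gene lists (symbol patterns, corrected after the annotation was seen) were chosen with earlier results of these data known. Of the lists, 14 held a member. Genes were named by rule. Of members with a symbol, 15 had the largest time difference in M202 and 10 the most negative difference between time differences. Of all members, 6 were taken by each of these measures. Added to them were up to 4 members per list, neighbouring members, and the 3 genes on each side of a limit. The other members with a symbol (HAP2A, GH3.2, CRYD and AGO18) and non-members set beside them were named after their values were seen. Python 3.11.15, numpy 2.4.6, pandas 2.3.3 and matplotlib 3.10.9 were used. The selection code was run on simulated data in which genes well above the floor were given a known rise. That run checks the code only and says nothing on the members. Alternatives were other floors, probe-set rules, normalizations and limits.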

Additional observations from a re-analysis of the deposited data

Results flagged for a closer look

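LOC4349113 was the 1 member with time differences of at least 2-fold in opposite directions as measured, with a difference between time differences of -3.94 on the log2 scale. Its time difference was 2.64 in M202 and -1.30 in M202(Sub1). The difference was not tested, since each group has 1 array, and the gene was under the floor on the M202 1-day and M202(Sub1) 6-day arrays. With those values set to the floor the time differences were 1.46 and -0.71, so the 2-fold difference in M202(Sub1) was lost, and the difference between them was -2.17.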

How the results depend on the processing

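No paired analysis was possible because each group has 1 array, and for the same reason no array could be left out. In the order M202 time difference, M202(Sub1) time difference, genotype difference at 1 day and at 6 days, the medians over the members chosen under each setting follow, beside 2.18, 0.64, 0.31 and -1.04 as reported for 137 members. With no floor, or with it at the 25th percentile, 146 members gave 2.13, 0.54, 0.31 and -1.05. With the floor at the 75th percentile, 82 members gave 2.29, 0.76, 0.30 and -0.96. With values under the floor set to it, 124 members (115 of the 137) gave 2.12, 0.59, 0.21 and -1.13. With the mean of all probe sets, 125 members gave 2.19, 0.67, 0.29 and -1.12. Without sets ending in _x_at or _s_at, 125 members (123 of the 137) gave 2.20, 0.59, 0.32 and -1.04. With quantile normalization, 149 members (all of the 137 among them) gave 2.12, 0.60, 0.32 and -1.04. With arrays centred on their medians, 149 members (also with all of the 137) gave 2.19, 0.62, 0.31 and -1.06. A limit of 1.5 left 48 members with 2.58, 0.54, 0.49 and -1.59, and a limit of 2 left 19 members with 2.69, 0.29, 0.63 and -1.78. Stricter limits and floors leave fewer members by construction. For 50 genes named by the rule, the difference between time differences was below 0 in all 245 values over 5 of these settings. It was at or beyond the limit in 236. Genes named only for lying next to a limit were not among the 50. The 50 were chosen on these same arrays, some for their most negative differences, so the counts are a description and no check of the members. Of the 137 members 111 have 1 probe set, so the settings on probe sets often returned the same value. RMA values near background compress differences, and the spread between plants is unknown.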
